A study of Cephalotaxus fortunei with 9 samples.

Results

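In Cephalotaxus fortunei, an East Asian conifer, 180 of 37051 transcripts were both abundant in stem and several times less abundant in leaf and root. They were chosen by a rule on TPM (an abundance scaled by effective transcript length, which sums to 1000000 in each library): at least 100 TPM in each of 3 stem libraries, and a mean stem TPM at least 5 times both the mean leaf TPM and the mean root TPM. The rule used stem against leaf and stem against root, so the values of those contrasts are given as description, with no test. Leaf against root was not used by the rule, and is the comparison that was tested.

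Poly(A)-selected RNA was sequenced from leaf, root and stem in 9 libraries, 3 per tissue, for a study aimed at the enzymes behind cephalotaxine and homoerythrina alkaloids. The labels give the species and the tissue alone, with no plant age, treatment or genotype, and leave unstated whether separate plants were used. P-values therefore reflect the spread among libraries, part of which may be technical. The stem libraries were the deepest, at 18417327 to 19652495 estimated reads, followed by leaf (12809484 to 14606814) and root (7117807 to 8093638). The first and second root replicates held nearly the same values: their counts differed by less than sampling noise allows. A chi-square comparison over the 19309 transcripts with a summed count of 20 or more gave 0.528 per degree of freedom, where pairs of leaf libraries gave 14.6 to 19.1 and pairs of stem libraries 15.8 to 17.5. For the 144 stem-enriched transcripts with that many reads the value was 0.299. These root replicates were therefore averaged and taken as 1 sample, giving root 2 samples: the mean of replicates 1 and 2, and replicate 3.

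A conifer stem is a mixture of tissues: xylem, whose tracheids carry water and whose thick walls are built of cellulose, hemicellulose and lignin; phloem, which carries sugars; the cambium that renews both; and an outer layer of cortex, periderm and often resin ducts. In young stems the cortex is also green. Transcripts enriched in whole stem may come from any of these cells. In bulk tissue, fewer cells of a type and less RNA per cell cannot be told apart. The files identify transcripts by a running number, with no gene name, protein or sequence, so the labelled tissues could not be checked against marker genes, and no function, family or cell type is assigned to any transcript here.

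As a set, the stem-enriched transcripts made up a substantial part of stem RNA on the TPM scale and little of leaf or root RNA. They held 14.5%, 13.7% and 14.2% of TPM in stem replicates 1, 2 and 3, a mean of 14.1% ± 0.412 (SD, n = 3). The share of leaf TPM was 1.32% ± 0.0273 (SD, n = 3) and the share of root TPM was 0.459% ± 0.0238 (SD, n = 2). These 180 were 12.3% of the 1468 transcripts that reached 100 TPM in every stem library, and the other 1288 serve as a comparison. TPM is a share of each library, and scaling between libraries by TMM (trimmed mean of M-values), which raised stem relative to leaf and root, increased the number of transcripts that met the rule to 345, including all 180. As a share of estimated reads, which is not scaled by length, the set held 8.97% ± 0.380 of stem (SD, n = 3), 0.845% ± 0.0227 of leaf (SD, n = 3) and 0.489% ± 0.0158 of root (SD, n = 2).

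**Figure D1:**
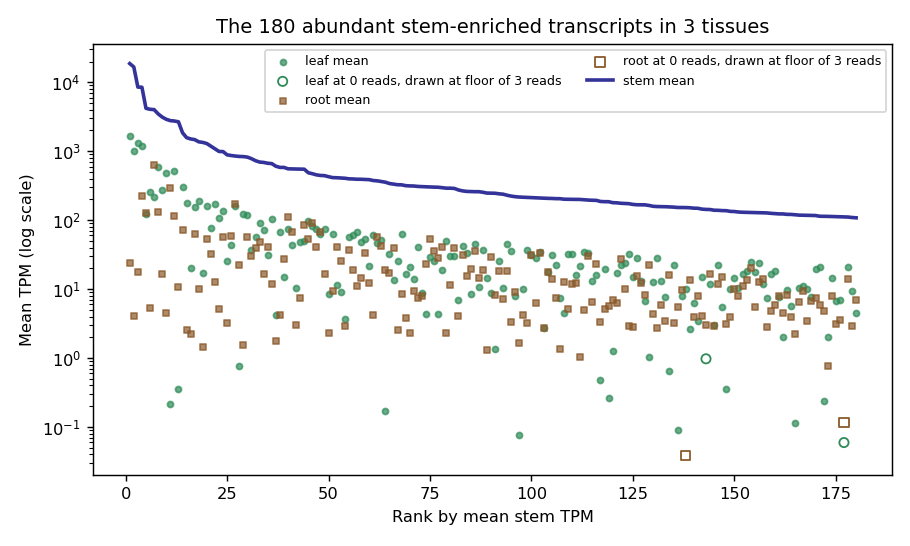
Mean TPM (log scale) of the 180 stem-enriched transcripts in stem (line), leaf (circles) and root (squares), ordered by mean stem TPM; open symbols mark transcripts with 0 reads in a tissue, drawn at the level of 3 reads over that tissue. Stem means run from 18692 down to 108 TPM, and the leaf and root symbols scatter over several orders of magnitude below the line.

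Abundance was concentrated in a few transcripts. Mean stem TPM ranged from 108 to 18692 with a median of 246; 2 transcripts exceeded 10000 TPM, 20 lay between 1000 and 10000, 89 between 200 and 1000, and 69 below 200. The 2 most abundant held 25.1% of the set's stem TPM, the first 8 held 48.3% and the first 50 held 80.5%. Each transcript rested on many reads in stem, from 159 to 292331 per library, with a median of 3660. The 2 most abundant transcripts also carried most of the difference between stem libraries: without them the set held 10.6% ± 0.0987 of stem TPM (SD, n = 3).

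The most abundant was transcripts_15459 (704 bases), at 19936, 17409 and 18729 TPM in the 3 stem libraries. It stood at 1704, 1588 and 1659 TPM in leaf, and at 22.2, 22.7 and 25.5 TPM in root. It thus ran down a steep order of stem, leaf and root with no overlap between libraries of different tissues. Second was transcripts_34926 (439 bases), at 18219, 14551 and 17273 TPM in stem and 1033, 986 and 965 TPM in leaf. Its root values were 3.30, 3.03 and 5.12 TPM. Both transcripts were thus abundant in leaf as well, and low in root: the mean leaf levels were 1650 ± 58.3 and 995 ± 34.8 TPM (SD, n = 3), against 24.0 ± 2.15 and 4.14 ± 1.38 TPM in root (SD, n = 2).

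Short transcripts followed in the ranking. In stem, transcripts_14292 (262 bases) stood at 8868, 8250 and 8417 TPM, with 1345, 1308 and 1284 TPM in leaf and 12.8, 13.0 and 21.9 TPM in root. Close to it was transcripts_18338 (301 bases), at 8703, 8123 and 8625 TPM in stem, with 1306, 1270 and 1048 TPM in leaf. Its root values were higher, at 172, 170 and 275 TPM. Leaf was the second tissue for both, and the root values of both were highest in replicate 3. On transcripts this short the TPM depends on the effective length estimated for each library, and 3 reads over root were worth 3.71 TPM for transcripts_14292 against 0.827 TPM for 3 reads over leaf.

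The next 4 differed in the order of leaf and root. In stem, transcripts_30363 (280 bases) reached 4309, 3947 and 4315 TPM, and its leaf and root values overlapped, at 143, 123 and 106 TPM in leaf and 136, 139 and 114 TPM in root. Stem values of transcripts_5577 (744 bases) were 4341, 3801 and 4039 TPM, with leaf (272, 244 and 255 TPM) far above root (4.26, 4.43 and 6.38 TPM). The opposite order of leaf and root was seen for transcripts_25522 (491 bases), with 4199, 4072 and 3769 TPM in stem, 207, 226 and 226 TPM in leaf and 685, 685 and 566 TPM in root. The root samples disagreed for transcripts_15632 (405 bases): it stood at 57.5 and 57.6 TPM in root replicates 1 and 2 and at 207 TPM in replicate 3, below leaf (558, 634 and 573 TPM) and stem (3340, 3768 and 3334 TPM).

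**Figure D2:**
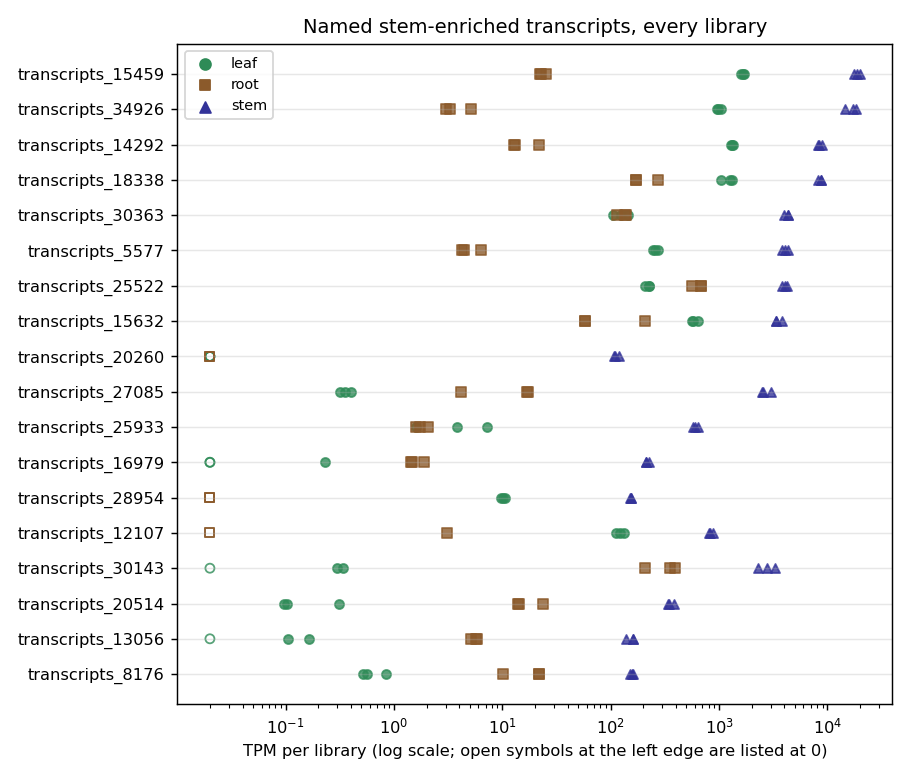
TPM (log scale) in every library for 18 named stem-enriched transcripts, with leaf as circles, root as squares and stem as triangles; open symbols at the left edge are values listed at 0. The stem triangles cluster tightly at the right of each row, while leaf and root change places: leaf lies above root for transcripts_15459 and transcripts_34926, and root above leaf for transcripts_30143 and transcripts_8176.

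Most of these transcripts were enriched in stem and not exclusive to it. The smaller of the 2 folds (stem over leaf, stem over root, with a tissue without reads set to a floor of 3 reads over the tissue) had a median of 9.57. It lay between 5 and 10 for 94 transcripts, between 10 and 20 for 48, between 20 and 50 for 25, between 50 and 100 for 8, and above 100 for 5. The median fold was 11.6 over leaf and 25.8 over root. At least 1 TPM was found in all 9 libraries for 151 of the 180, and 23 reached a mean of 100 TPM in leaf and 8 in root. For 153 transcripts the lowest stem library was at least 5 times the highest library of the other tissues.

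The 5 transcripts with a smaller fold above 100 came nearest to being restricted to stem. No read was assigned in any leaf or root library to transcripts_20260 (1449 bases), which had 107, 120 and 108 TPM in stem from 2444, 2790 and 2693 reads. It was at least 1875-fold higher in stem than in leaf and at least 967-fold higher than in root, taking the floor of 3 reads over each tissue; these limits cover counting error only. It was the sole member below 1 TPM in every leaf and root library. Second in this order was transcripts_27085 (394 bases), with 2988, 2476 and 2552 TPM in stem, 1 read in each leaf library (0.320, 0.354 and 0.400 TPM), and 16.9, 17.3 and 4.11 TPM in root. It differed from the first in its stem level, which was 2672 ± 277 TPM (SD, n = 3) against 111 ± 7.07 TPM (SD, n = 3).

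At lower levels, transcripts_25933 (573 bases) stood at 602, 575 and 641 TPM in stem, 7.21, 1.59 and 3.85 TPM in leaf and 2.04, 1.74 and 1.60 TPM in root. With 212, 211 and 226 TPM in stem, transcripts_16979 (455 bases) had 1 read over the 3 leaf libraries and 3, 3 and 4 reads in the root libraries. The fifth, transcripts_24436 (357 bases), stood at 399, 406 and 411 TPM in stem, with means of 3.69 TPM in leaf and 2.93 TPM in root. Salmon splits a read among the transcripts it matches, so a transcript listed at 0 may have a near-identical copy that received its reads.

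Just inside the fold threshold were transcripts_20970 (smaller fold 5.02) and transcripts_30832 (5.03), and just outside it were transcripts_6066 (4.98) and transcripts_33656 (4.87). Just inside the abundance threshold were transcripts_27768 (lowest stem library 102 TPM) and transcripts_25113 (102 TPM), and just outside it were transcripts_18337 (99.1 TPM) and transcripts_19122 (97.8 TPM). The excluded transcripts_33656 stood at 1599 ± 96.6 TPM in stem (SD, n = 3), and 14 members had a higher stem mean.

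Leaf and root were next compared, to ask which of them ranks second to stem. Of the 180 transcripts, all of which passed the filter on low counts, 76 were higher in leaf and 24 were higher in root, and 80 were not called (edgeR quasi-likelihood test over all transcripts, Benjamini-Hochberg adjusted p under 0.05 and at least a 2-fold difference). Of all 24564 transcripts tested, 17.7% were called higher in leaf and 26.6% higher in root, 44.3% in all. Against this background 42.2% of the stem-enriched transcripts were higher in leaf and 13.3% higher in root. The same lean was present in the other 1288 transcripts abundant in stem, of which 41.5% were higher in leaf and 9.94% higher in root, so these shares show nothing particular to the stem-enriched transcripts. The direction of these 2 counts was the same without root replicate 3, with 74 higher in leaf and 23 higher in root, when 18.4% and 18.7% of all tested transcripts were called in those directions.

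The sizes of the differences gave the same order. The median log2 fold change of leaf over root was 0.72 over the stem-enriched transcripts, 0.72 over the other transcripts abundant in stem and -0.27 over all tested. It was above 0 for 126 of 180 (70.0%) and for 43.7% of all tested. Differences of at least 4-fold were called for 62 of the 180, of which 45 were higher in leaf and 17 higher in root. Among all tested transcripts 29.7% differed by that much, 9.25% toward leaf and 20.4% toward root, and among the other 1288 abundant in stem 275 did so toward leaf and 60 toward root. These counts come from sets of unequal size. Quartiles of the log2 fold change were -0.35 and 2.02 over the stem-enriched transcripts and -0.11 and 1.76 over the other 1288. Over all tested they were -1.91 and 0.89. The wider spread of the stem-enriched transcripts than of the other 1288 was not tested. Of the 80 not called, 48 had an adjusted p of 0.05 or more and 32 had an adjusted p below it with a difference under 2-fold; neither shows that leaf and root were alike. Among the 100 called, leaf and root samples did not overlap in TPM for 98, as for 10732 of the 10872 called among all tested.

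**Figure D3:**
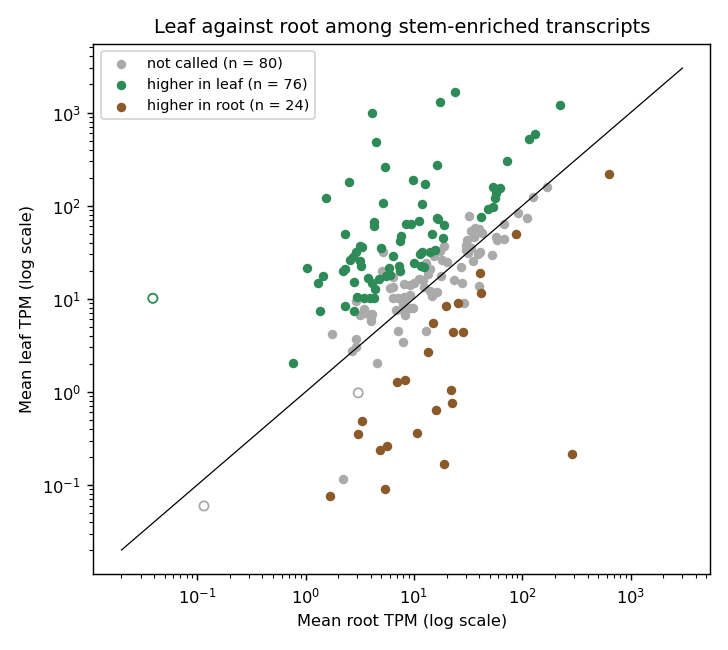
Mean leaf TPM against mean root TPM (both log scales) for the 180 stem-enriched transcripts, coloured by the edgeR call between leaf and root; the line marks equal levels, and open symbols have a tissue at 0 reads, drawn at the floor of 3 reads. The 76 transcripts higher in leaf reach further up in level, while the 24 higher in root include 10 with less than 1 TPM in every leaf library. So low a leaf level itself favours a call toward root.

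The calls toward leaf included most of the abundant transcripts. Of the 22 with a stem mean of at least 1000 TPM, 17 were higher in leaf, 3 were higher in root and 2 were not called. Of the 69 below 200 TPM, 20 were higher in leaf, 10 higher in root and 39 not called. Over all tested transcripts 17.7% were higher in leaf and 26.6% higher in root, and over the other 1288 abundant in stem 41.5% and 9.94%. Those shares were not split by stem level, so the counts cannot show whether the lean is particular to the set. The 76 higher in leaf held 71.0% of the set's stem TPM, the 24 higher in root 10.8% and the 80 not called 18.3%. The profiles behind the calls are given as description, since the calls themselves fix the order of leaf and root in each group. The transcripts higher in leaf had a median of 35.5 TPM in leaf and 5.92 TPM in root, and a median stem fold of 7.58 over leaf. Those higher in root had a median of 17.3 TPM in root and 1.15 TPM in leaf, with a median stem fold of 14.6 over root and 171 over leaf.

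No comparison set of equal stem level was used. Among the 8 most abundant, 6 were higher in leaf than in root. Their log2 fold changes of leaf over root were 6.02 for transcripts_15459 (SE 0.18, adjusted p = 1.18e-06, edgeR), 7.80 for transcripts_34926 (SE 0.26, adjusted p = 1.67e-06, edgeR) and 7.05 for transcripts_14292 (SE 0.21, adjusted p = 1.30e-06, edgeR). They were 3.09 for transcripts_18338, 5.73 for transcripts_5577 and 2.33 for transcripts_15632, the last with an SE of 0.49 and an adjusted p of 0.00656 (edgeR), as its root samples differed. The fold changes are of counts, which are not scaled by effective length, so they can differ from ratios of TPM. For transcripts_14292 the fold on counts was 132, beside mean TPM of 1312 in leaf and 17.4 in root. In contrast, transcripts_25522 was higher in root, with a log2 fold change of -1.05 (SE 0.09, adjusted p = 8.78e-05, edgeR), close to the 2-fold limit on counts. On the TPM scale its means were further apart, at 220 TPM in leaf and 625 TPM in root. For transcripts_30363 the log2 fold change was 0.73 (SE 0.15, adjusted p = 0.00519, edgeR), under the limit, and its sign depended on length scaling: it was -0.083 with effective-length offsets.

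The largest called differences toward leaf, besides transcripts_34926 and transcripts_14292, were in transcripts_28954 and transcripts_12107. A long transcript of 5182 bases, transcripts_28954 stood at 151, 153 and 153 TPM in stem and 10.5, 10.1 and 9.70 TPM in leaf, and had no read in any root library. Its leaf level exceeded root by at least 259-fold (adjusted p = 1.39e-06, edgeR). At 814, 822 and 872 TPM in stem and 133, 121 and 112 TPM in leaf, transcripts_12107 (216 bases) had 1 read in root, in replicate 3. The ratio of leaf to root TPM was 79.7, with a 95% exact Poisson interval of 14.3 to 3149 from that read (adjusted p = 2.02e-05, edgeR).

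The largest called differences toward root were in transcripts that leaf nearly lacked. In leaf, transcripts_30143 (443 bases) had 0, 1 and 1 reads (0, 0.299 and 0.338 TPM), against 393, 354 and 205 TPM in root and 2748, 3312 and 2272 TPM in stem. Root exceeded leaf by a ratio of 1362, with a 95% exact Poisson interval of 377 to 11249 from the 2 leaf reads (adjusted p = 5.26e-06, edgeR). By stem mean it ranked 11 in the set. Root levels of transcripts_20514 (581 bases) were 14.1, 14.0 and 23.5 TPM, against 0.0958, 0.102 and 0.309 TPM in leaf and 387, 342 and 337 TPM in stem. The log2 fold change of leaf over root was -6.41 (SE 0.45, adjusted p = 3.33e-05, edgeR).

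At lower stem levels the same profile was seen in transcripts_13056 (701 bases), with 161, 138 and 159 TPM in stem, 5.83, 5.76 and 5.12 TPM in root and about 3 reads over the leaf libraries. For this transcript the ratio of root to leaf was 60.6, with a 95% exact Poisson interval of 20.7 to 294. In transcripts_8176 (1518 bases) stem stood at 159, 157 and 150 TPM, root at 21.9, 21.6 and 10.1 TPM and leaf at 0.518, 0.845 and 0.561 TPM. Its log2 fold change of leaf over root was -4.91 (SE 0.33, adjusted p = 2.57e-05, edgeR). Of the 4 transcripts with the largest smaller folds, transcripts_27085 and transcripts_16979 were also called higher in root (adjusted p = 0.00246 and 0.00360, edgeR), and transcripts_25933 was not called, with a log2 fold change of 1.34 (SE 0.69, adjusted p = 0.142, edgeR).

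Few of the set were near absence in either of the other tissues. Below 1 TPM in every leaf library were 13 stem-enriched transcripts, of which 10 were called higher in root. So low a leaf level itself favours a call toward root. Of all 24564 tested transcripts 26.6% were called higher in root, a share not split by leaf level. The 10 therefore cannot be read as a trait of the set. Below 1 TPM in both root samples were 3, namely transcripts_28954, transcripts_1690 and transcripts_20260. The leaf and root numbers are not on equal terms, as the root libraries were shallower and effective length was estimated for each library. In root 1 read on a short transcript can already exceed 1 TPM: it was worth 3.06 TPM for transcripts_12107 in replicate 3. For the same transcript, 3 reads spread over the 3 leaf libraries were worth a mean of 0.995 TPM. The root number depended on the library: 11 transcripts were below 1 TPM in the mean of root replicates 1 and 2 and 7 in replicate 3. With replicate 3 left out, the numbers were thus 13 in leaf and 11 in root.

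The 2 root samples gave similar values for most stem-enriched transcripts, with exceptions. Both were at 1 TPM or more for 165 transcripts, and for 141 of these replicate 3 was within 2-fold of the mean of replicates 1 and 2 (median ratio 0.943). Replicate 3 was the higher for 84 of 180 (46.7%), compared with 24.7% of the other transcripts abundant in stem. The share over all transcripts was not counted, and the rule favoured low root levels. The contrast therefore cannot be read as a trait of the set. Replicates 1 and 2 had 0 reads and replicate 3 had 1 to 4 for 6 transcripts of 216 to 296 bases, among them transcripts_17915 (244 bases, 2 reads) and transcripts_23607 (275 bases, 3 reads). The reverse held for transcripts_22557 (3592 bases), which had 245 and 337 estimated reads in root replicates 1 and 2 and 0 in replicate 3. These 3 transcripts were singled out after their values were seen. For transcripts_22557, leaf values also spread from 12.9 to 46.4 TPM, while the stem mean was 201 ± 10.04 TPM (SD, n = 3).

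**Figure D4:**
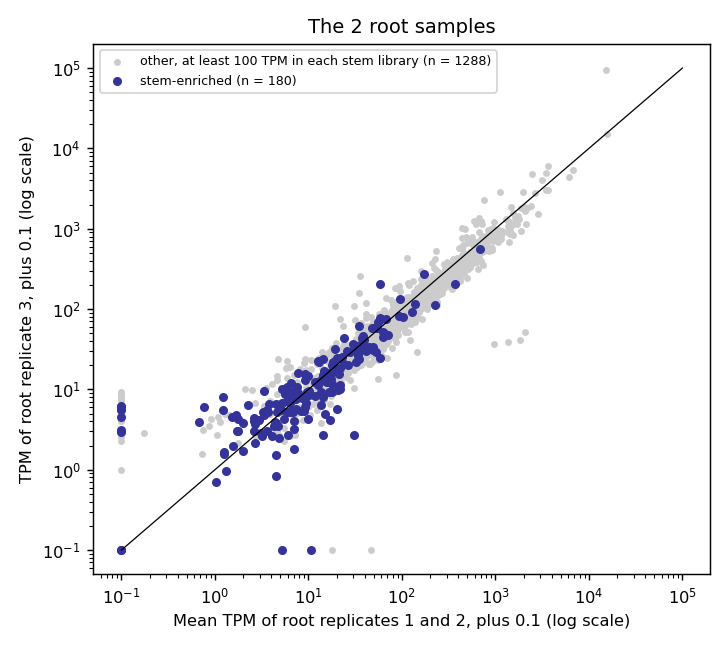
TPM of root replicate 3 against the mean of root replicates 1 and 2, each plus 0.1 (log scales), for the 180 stem-enriched transcripts (dark) and the other 1288 transcripts with at least 100 TPM in each stem library (grey); the line marks equal levels. For 141 of the 165 dark points with at least 1 TPM in both root samples the difference is within 2-fold, and the points at the left edge had 0 reads in replicates 1 and 2.

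Within stem the 3 libraries gave similar levels, with differences beyond sampling noise. Over the 180, chi-square per degree of freedom between stem libraries was 41.1 to 113, a measure that grows with the number of reads. The median coefficient of variation over the stem libraries was 6.19% for stem-enriched transcripts and 5.30% for the other transcripts abundant in stem. Spearman correlations of TPM across the 180 transcripts were 0.974 to 0.986 between stem libraries; the points are transcripts of the same libraries and not independent. Stem replicate 1 had the highest value for 80 transcripts, replicate 2 for 55 and replicate 3 for 45. The highest library exceeded the lowest by more than 1.5-fold for 6 transcripts and by more than 2-fold for 0.

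The 3 most variable had stem values in the same order. In transcripts_10779 (876 bases) stem stood at 147, 247 and 162 TPM (coefficient of variation 28.8%). The values were 116, 196 and 158 TPM in transcripts_17685 (671 bases, 25.3%) and 252, 410 and 337 TPM in transcripts_13166 (244 bases, 23.9%). In each, replicate 2 was the highest and replicate 1 the lowest. Root values of transcripts_13166 were above its leaf values, at 48.1, 49.2 and 30.6 TPM against 10.3, 20.3 and 10.4 TPM, with no overlap. Its leaf-root difference was not called on counts (log2 fold change -0.68, SE 0.36, adjusted p = 0.148, edgeR), which are not scaled by effective length. With effective-length offsets the log2 fold change was -1.62 and it was called higher in root, as it was with limma on log2 of TPM.

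Stem-enriched transcripts had a lower median length than the other transcripts abundant in stem. Their median length was 784.5 bases (quartiles 449 and 1450) against 1113 bases (560 and 1717), and the median of all 37051 transcripts was 695 bases. Transcripts enriched in leaf by the same rule, with leaf in place of stem, numbered 95 and had a median of 705 bases. Of transcripts at 100 TPM or more in every stem library, the stem-enriched were 13.3% of those under 300 bases, 16.4% from 300 to 500 bases and 18.4% from 500 to 1000 bases, and 8.12% from 1000 to 2000 bases and 8.21% above. The 51 stem-enriched transcripts under 500 bases held 52.8% of the set's stem TPM. Abundance scaled by length admits more short transcripts, and with CPM (counts scaled by library total alone) in place of TPM the rule gave 168 transcripts, of which 123 were in the set. Their median length was 1366.5 bases, and that of the other 1820 above the same limit was 2082 bases, so the stem-enriched had the lower median on both scales. These lengths were described and not tested.

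**Figure D5:**
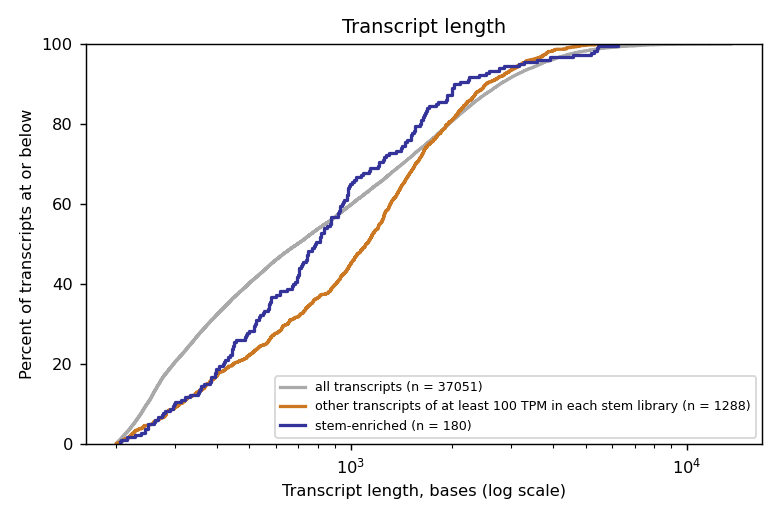
Percent of transcripts at or below each length in bases (log scale) for the 180 stem-enriched transcripts, the other 1288 with at least 100 TPM in each stem library, and all 37051. Over most of its course the stem-enriched curve runs to the left of that of the other abundant transcripts, with medians of 784.5 and 1113 bases.

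Reads of many transcripts abundant in stem, the stem-enriched among them, were divided with similar transcripts. Estimated reads were more than 0.001 away from a whole number in every stem library for 138 of 180 (76.7%), compared with 70.3% of the other transcripts abundant in stem and 32.4% of all transcripts. The share over all transcripts is not a like baseline, since a transcript without reads in a stem library cannot be counted. Levels of the stem-enriched transcripts are uncertain to the extent that near-identical copies share their reads. The running numbers of the 180 spread from 244 to 36761, with no 2 in consecutive positions, so the planned description of runs of adjacent numbers had no member to name.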

How the data were processed

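Poly(A) RNA, prepared with TRIzol and cleared of DNA, went into directional libraries, per the labels' protocols. Per the submitters' processing notes, fastp 0.23.2 and Salmon 1.10.0 were used; which reference transcripts and options they ran with is not given in the sources used here. Per the file headers, the authors deposited for each of 9 libraries the length and effective length in bases, the TPM, and the estimated count of reads of 37051 transcripts, which carry numbers and no gene names.

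Stem-enriched transcripts were selected from the TPM values. The deposited estimated counts, rounded, were tested for leaf against root on 8 samples (3 leaf, 3 stem, 2 root) in R 4.3.3 with edgeR 4.0.16. Its default expression filter left 24564 transcripts, libraries were scaled by TMM, and a quasi-likelihood model (robust option) had 1 mean per tissue. Calls required an adjusted p under 0.05 over all tested transcripts and a log2 fold change of 1 or more in either direction. SEs were derived from the F statistic. Intervals and floors cover counting error only. The code was also run on simulated counts, drawn with the spread fitted here and with few transcripts changed. Such a run checks the code and does not show how reliable the calls are.

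Named transcripts are the 8 with the highest stem mean, the 4 with the largest smaller fold, the 4 with the largest called difference between leaf and root in each direction without overlap, those nearest each threshold, and the 3 most variable in stem; other names were chosen after their values were seen. The members, lists and tests were chosen with earlier results of these data known. Alternatives used DESeq2 1.42.0, limma 3.58.1, other scalings, filters and thresholds, and left out each library.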

Additional observations from a re-analysis of the deposited data

How the results depend on the processing

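The number of stem-enriched transcripts followed the limits of the rule and the scaling between libraries. It was 275 at 50 TPM, 102 at 200 TPM, 306 at 3-fold, 86 at 10-fold, 345 with TMM scaling of TPM and 326 with DESeq2 size factors, against 180; with CPM it was 168, with the lowest stem library set against the highest other sample 153, and with a library left out 177 to 188. Their share of stem TPM in percent was 14.9, 12.9, 20.05, 7.41, 19.8 and 19.0 under the first 6 of these settings and 12.6 with the lowest stem library, against 14.1; with transcripts of at least 500 bases alone, a setting chosen after seeing the data, it was 6.66, and with a library left out 13.9 to 14.4. At 200 TPM and at 10-fold the median length was 714.5 and 721 bases and the median coefficient of variation over stem 5.99% and 6.45%; the latter was 7.17% with TMM scaling. Divided reads in every stem library were found for 84.3% at 200 TPM and for 68.9% with a tolerance of 0.01 reads.

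Between leaf and root, members called higher in leaf numbered 67 to 96 and members called higher in root 22 to 36 over the settings run, with the upper ends of both when no fold threshold was set. With a library left out they numbered 74 to 77 and 22 to 25, 97 to 102 in all. The median log2 fold change of leaf over root over members was 0.72. It was 0.83 with 9 separate libraries, 0.82 with these and a replicate block, 0.60 with DESeq2, 0.59 with DESeq2 size factors in edgeR, 0.73 with a 1 CPM filter, 0.79 with effective-length offsets, 0.80 with leaf and root libraries alone (171 members tested), 0.63 with library totals, 0.88 and 0.79 with limma on log2 of TPM plus 0.1 and plus 1, 0.71 with voom, 0.84 with no filter, 0.83 when root replicate 3 alone stood for root, and 0.67 to 0.89 on leaving out 1 library. The median over all tested transcripts moved from -0.27 to -0.39 with DESeq2 size factors and to -0.073 without root replicate 3. Fits with a lone root sample take its spread from leaf and stem. The replicate block gave 77 members higher in leaf and 23 higher in root. Deviations of same-number leaf and stem libraries correlated at -0.010, 0.0038 and 0.015, but library noise could hide a pairing.

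Of 548 recomputed differences of named members, 527 kept their direction and call. The signs that changed belonged to uncalled differences: transcripts_25113 went from 0.094 to -0.028 with DESeq2, -0.029 with DESeq2 size factors and to between -0.0023 and 0.20 on leaving out 1 library, and transcripts_30363 from 0.73 to -0.083 with effective-length offsets and -0.026 and -0.025 with limma on log2 of TPM plus 0.1 and plus 1. The call of transcripts_20970 (1.16) was lost in the last 3 of these settings, at 0.79 to 0.86, and that of transcripts_25522 with no filter (-0.93) and with root replicate 3 alone (-0.92), each on the fold limit. Calls were gained for 4 transcripts: transcripts_10779 toward leaf with 9 separate libraries (1.43), DESeq2 (1.15), effective-length offsets (1.88) and limma on log2 of TPM plus 0.1 (1.86) and plus 1 (1.69); transcripts_13166 toward root with the last 3 of these (-1.62, -1.57 and -1.50); transcripts_17685 toward leaf with limma plus 0.1 (1.06); and transcripts_25933 toward leaf without leaf replicate 2 (1.72). The cause of these changes was not tested.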
